A study of Mus musculus with 4 samples.

Results

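The 9 genes described here are the cell cycle inhibitor genes Cdkn1a, Cdkn1b, Cdkn1c, Cdkn2a, Cdkn2b and Cdkn2c, the retinoblastoma gene Rb1, the tumor suppressor gene Trp53 and its antagonist Mdm2. They were chosen by name, and an interaction was assigned to a gene when either of its anchors overlapped the gene body or the 2.5 kb beyond either end. By this rule 137 of the 99041 listed interactions (0.138%) belonged to the 9 genes, out of 20665 autosomal protein-coding genes, and none belonged to more than 1 of them. The interactions come from H3K27ac HiChIP, in which chromatin that lies close together in the nucleus is ligated and then enriched with an antibody against acetylated lysine 27 of histone H3, a mark of active promoters and enhancers. The sample titles call the libraries ChIP-seq, but the extraction protocol and the series design name HiChIP, which fits a list of anchor pairs. The series holds 4 mouse libraries, 2 of YAP-M tumor cells isolated from brain tumor tissue with the genotype YAP-M fusion (YAP1 joined to MAMLD1) and 2 of cultured wild-type neural stem cells grown with EGF and basic FGF. What drives the fusion, the age of the animals and whether animals were pooled is not given in the sources read. The list was read as that of the tumor because its name carries the letters YM. It gives positions only, with no count, score or library, so its depth is unknown, no value has a replicate error, and no test was run.

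Cells leave the first gap phase of the cell cycle when cyclin-dependent kinases phosphorylate the retinoblastoma protein and release E2F transcription factors. The INK4 inhibitors (Cdkn2a, Cdkn2b, Cdkn2c) bind the kinases that partner D-type cyclins, and the CIP/KIP inhibitors (Cdkn1a, Cdkn1b, Cdkn1c) bind a wider range of cyclin-kinase complexes. The p53 protein, encoded by Trp53, activates Cdkn1a and Mdm2, the MDM2 protein directs p53 to degradation, and ARF, the second product of Cdkn2a, restrains MDM2.

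All 9 genes had at least 1 interaction. Over all coding genes the same rule found an interaction at 67.8%, and the exact 95% interval of 9 of 9 genes reached from 66.4% to 100%, so the share alone did not set these genes apart. The number per gene ran from 1 at Cdkn1b to 49 at Rb1. In order, Rb1 had 49, Cdkn2a 23, Cdkn1c 15, Cdkn2b 14, Cdkn2c 13, Cdkn1a and Trp53 8 each, Mdm2 6 and Cdkn1b 1. The median was 13, against 3 over all coding genes, and 8 of the 9 genes had more than 3, as did 47.3% of coding genes. As many interactions as at Rb1 were found at 1.64% of coding genes, as many as at Cdkn2a at 7.13% and as many as at Mdm2 at 37.2%. With no replicate, neighbours in this order such as Cdkn1c, Cdkn2b and Cdkn2c cannot be ranked.

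**Figure D1:**
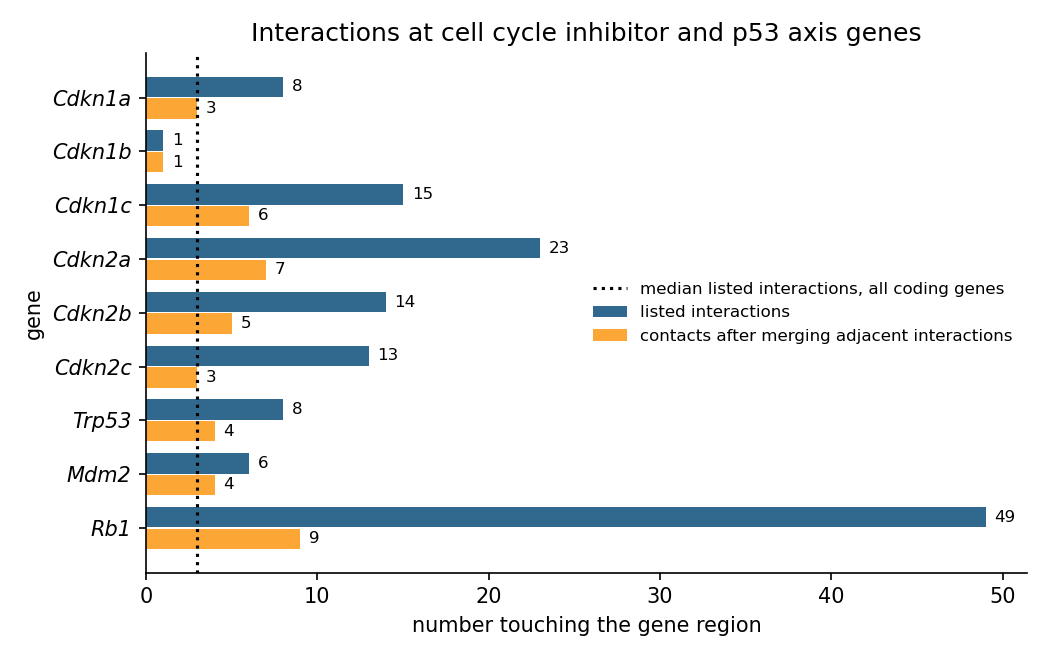
Horizontal bars give, for each of the 9 genes, the number of listed interactions that touch the gene region (blue) and the number of contacts left when interactions with adjacent anchors are merged (orange); the dotted line is the median of 3 listed interactions over all coding genes. Rb1 leads with 49 interactions and 9 contacts, and Cdkn1b has 1 of each.

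Gene length entered these counts, since Rb1 covered 14 of the 10 kb bins and the other genes 2 to 4. Coding genes over 14 bins had a median of 10 interactions and an upper quartile of 25.8 (170 genes), below the 49 of Rb1. Per bin, Cdkn2a stood first with 7.67 interactions, followed by Cdkn1c with 7.5, Cdkn2b with 7 and Cdkn2c with 6.5. Rb1 had 3.5 per bin, Cdkn1a and Trp53 2.67, Mdm2 1.5 and Cdkn1b 0.5, against a median of 0.667 over all coding genes. Per bin, as many interactions as at Cdkn2a were found at 2.95% of coding genes, and as many as at Rb1 at 13.98%. The genes with high numbers per bin were thus the 3 INK4 genes and Cdkn1c.

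Most of the 137 interactions lay beside another one. When interactions with anchors within 1 bin of each other were merged, 38 distinct contacts remained. The 30 interactions of Rb1 in its largest merged contact counted as 1. Rb1 then had 9 contacts, Cdkn2a 7, Cdkn1c 6, Cdkn2b 5, Trp53 and Mdm2 4 each, Cdkn1a and Cdkn2c 3 each and Cdkn1b 1, with a median of 4 against 2 over all coding genes. Only 10.2% of the interactions of the 9 genes had no adjacent interaction, and 10.1% in the whole list.

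The partners lay at a median distance of 170 kb (20 to 720 kb), against 180 kb in the whole list. Of the 137 interactions, 75 (54.7%, exact 95% interval 46.0 to 63.3%) led to a bin between coding genes, 34 (24.8%) to the inside of another coding gene and 28 (20.4%, 14.03 to 28.2%) to an end of another coding gene. Over all coding genes, 30.9% of the gene-to-partner pairs led between genes, 21.2% inside genes and 47.9% to gene ends. Rb1 supplied 33 of the 75; without Rb1, an alternative chosen after seeing the data, the shares were 47.7%, 29.5% and 22.7% of 88 interactions and the median distance was 185 kb. A further 32 of the 75 came from the neighbours Cdkn2a and Cdkn2b, which share partner bins. The other 6 genes, a split also chosen after seeing the data, had 10 of 51 interactions (19.6%) with a bin between coding genes. This was below the 30.9% of all coding genes, so the high share rested on Rb1 and the Cdkn2a and Cdkn2b locus. Of the 51, 22 (43.1%) led inside another coding gene and 19 (37.3%) to a gene end. Cdkn1c had 14 of the 22, and 0 of its 15 interactions led between coding genes. The low share of these 6 genes thus rested in part on 1 gene. The intervals cover counting error only and are too narrow, because adjacent interactions are not independent. Partners lay on the lower-coordinate side in 90 interactions and on the higher side in 47, of which Rb1 supplied 42 and 7; without Rb1 the numbers were 48 and 40. At 4 genes (Cdkn1b, Cdkn1c, Cdkn2b and Trp53) all partners lay on 1 side, which at Cdkn1b follows from its single interaction. The share of such genes among all coding genes was not computed.

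**Figure D2:**
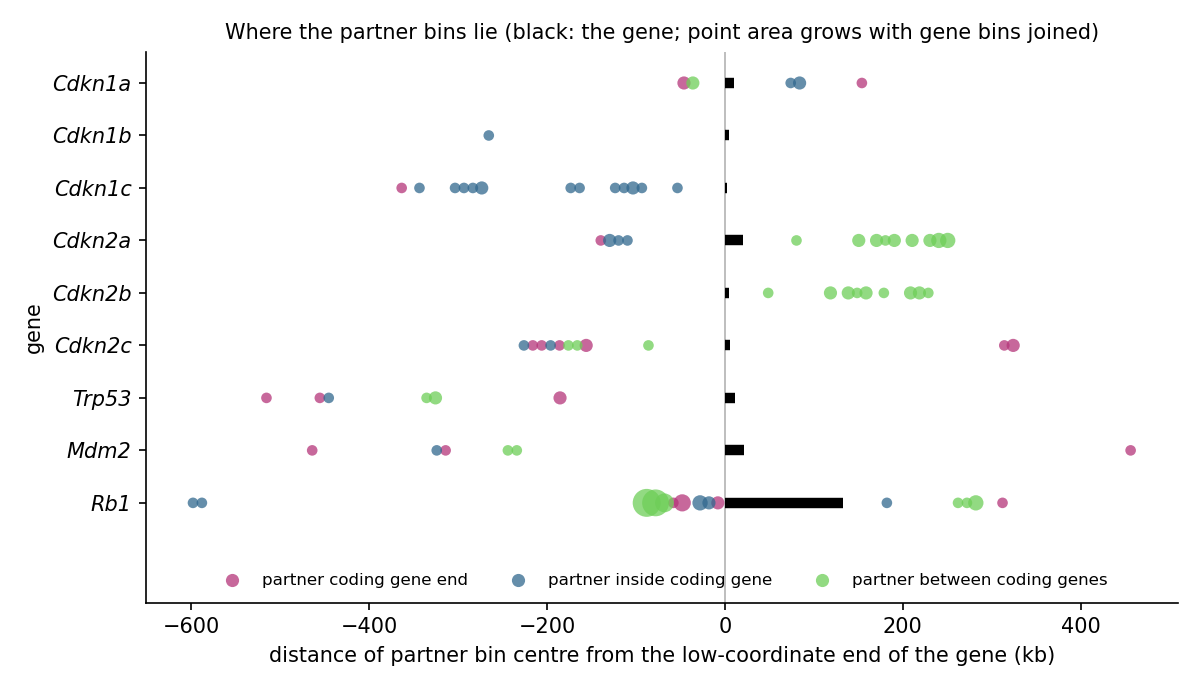
Each point is a partner bin, placed by the distance of its centre from the low-coordinate end of the gene in kb; black bars are the genes, point area grows with the number of gene bins joined to the partner, and colour gives the kind of partner. All 15 interactions of Cdkn1c and all 8 of Trp53 run to lower coordinates, all 14 of Cdkn2b run to higher ones, and the large points left of Rb1 are bins joined to up to 12 of its bins.

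Among the CIP/KIP genes, Cdkn1a lies on chromosome 17 from 29090979 to 29100722 in the mm10 build. Its 8 interactions fell into 3 contacts. On the lower side, 4 interactions at 30 to 50 kb reached 2 bins from 29040001 to 29060000. They hold an end of Srsf3, a splicing factor gene, and the low-coordinate end of Trp53cor1, a long noncoding RNA gene next to Cdkn1a that is known as a transcriptional target of p53 (29057474 to 29079126; named after its value was seen). The bin at the end of Trp53cor1, which also holds the noncoding gene Gm41556, was joined to both Cdkn1a bins that had an interaction. The Srsf3 bin and the Cpne5 bin from 29170001 to 29180000 were likewise joined to both. The lower of these Cdkn1a bins, from 29080001 to 29090000, lies within 2.5 kb of the other end of Trp53cor1. Its 3 interactions are therefore shared with that gene. On the higher side, 3 interactions at 70 to 90 kb passed over Rab44 into Cpne5, a copine gene, and 1 at 150 kb reached a bin with ends of Cpne5 and Ppil1, a cyclophilin gene. The bin that holds both annotated starts of Cdkn1a had 5 of the interactions, the bin before it 3 and the bin at the far end 0.

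The 250 bases before the upstream annotated start of Cdkn1a (chr17:29090729-29090978, plus strand, GRCm38.p6, which is mm10; RefSeq) are shown because they hold a match to the p53 motif, marked by capitals, in a gene that p53 regulates. The motif was searched as 2 copies of its short element with 0 to 13 bases between them, a pattern that reads the same on both strands.

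Cdkn1a upstream start: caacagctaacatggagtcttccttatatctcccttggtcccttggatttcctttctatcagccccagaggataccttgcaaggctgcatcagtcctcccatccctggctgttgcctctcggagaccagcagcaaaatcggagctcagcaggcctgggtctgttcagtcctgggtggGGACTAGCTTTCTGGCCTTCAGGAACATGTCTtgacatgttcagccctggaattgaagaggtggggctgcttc

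The match lay 73 to 42 bases before the start. The search for the short element, RRRCWWGYYY, allowed no mismatch. The bases directly after the match, tgacatgttc, miss that element at their first base only and are not marked. The capitals therefore need not mark the bases that p53 uses. Of 31396 promoter stretches of 250 bases on the autosomes, 20 (0.0637%) held such a match, and of the 10 stretches available for 7 of the 9 genes, only this one did. The 31396 stretches belong to 25748 genes, while 16457 coding genes have an annotated start, so genes of other kinds are included. A match describes the letters and is no evidence of binding. A second annotated start, at 29093769, lies in the same 10 kb bin, so the interactions cannot be assigned to either start.

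Cdkn1b (chromosome 6, 134920401 to 134925525), which encodes the inhibitor p27, had a single interaction. It joined the bin of its start to a bin inside Borcs5, a gene for a subunit of a lysosome-positioning complex, 270 kb away (134650001 to 134660000), and passed over Gpr19, Crebl2 and Dusp16. The start bin also holds an end of Lockd, a long noncoding RNA gene (134929092 to 134951718), so this interaction is shared. The bin on the lower side of Cdkn1b, at an end of Gpr19, also had 1 interaction, and the bin on its higher side had 0. By contrast, 10 listed interactions passed over Cdkn1b with an anchor on either side, and Borcs5 itself had 51. Of the 16 other coding genes within 500 kb, 14 had more interactions than Cdkn1b. As the depth is unknown, further contacts of Cdkn1b were not detected rather than shown to be absent.

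Cdkn1c (chromosome 7, 143458339 to 143461059) had 15 interactions in 6 contacts, all to lower coordinates. It encodes the inhibitor p57 and is an imprinted gene, expressed mainly from the maternal chromosome. Of the 15, 14 ended inside Kcnq1 (143106877 to 143427050), the potassium channel gene of the same imprinted domain, and the last, at 370 kb, ended at Trpm5, a cation channel gene beyond it. The partners formed blocks at 60 kb, at 100 to 130 kb, at 170 to 180 kb, at 270 to 310 kb, at 350 kb and at 370 kb. The bin from 143290001 to 143300000, 170 kb away, holds the high-coordinate end of Kcnq1ot1 (143213111 to 143296547; named after its value was seen), the noncoding RNA whose promoter lies in the imprinting control region of the domain. That bin had 2 interactions in the list, 1 of them with Cdkn1c. No allele can be told apart in the list. The bin from 143180001 to 143190000, inside Kcnq1, was joined to both Cdkn1c bins and had 8 interactions in all. Of the 15, 13 were in the bin from 143460001, which holds the high-coordinate end of the gene and the noncoding gene Gm33663, and counting bins by their midpoint left 0 at Cdkn1c.

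Among the INK4 genes, Cdkn2a (chromosome 4, 89274473 to 89294619) and Cdkn2b (89306289 to 89311032) are neighbours. Cdkn2a encodes the kinase inhibitor p16 and, from a separate first exon, ARF, and Cdkn2b encodes the inhibitor p15. Cdkn2a had 23 interactions in 7 contacts and Cdkn2b had 14 in 5. No interaction joined the bins of the 2 genes to each other. Cdkn2a had 5 interactions on the lower side, at 130 to 160 kb, all with bins at an end of or inside Mtap, which encodes the methionine salvage enzyme methylthioadenosine phosphorylase. The other 18 interactions of Cdkn2a, and all 14 of Cdkn2b, ran to higher coordinates, into a stretch with no coding gene before Dmrta1 (89688198).

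The partner bins of the pair coincided in that stretch. Cdkn2a had 13 partner bins and Cdkn2b 9, and 8 were common, 61.5% of those of Cdkn2a and 88.9% of those of Cdkn2b, all between 89350001 and 89530000. Neighbouring genes can share partners through adjacent calls, so this is a description of 1 region. The bins from 89510001 to 89520000 and from 89520001 to 89530000 were each joined to all 5 bins of the 2 genes, at 200 to 250 kb. The second of these had 21 interactions in all, of which 5 were with the INK4 bins, 5 with Mtap and 11 with bins without a coding gene. Both bins lie within 2.5 kb of the far end of Gm12610, a long noncoding RNA gene (89295180 to 89518621; named after its value was seen) that extends from beside the high-coordinate end of Cdkn2a across Cdkn2b. Gm12610 overlaps the bin at the high-coordinate end of Cdkn2a and both Cdkn2b bins, so the interactions of these bins are shared with it. It also overlaps the shared partner bins up to the one from 89510001 to 89520000. Interactions between those partner bins and these gene bins therefore have both anchors at Gm12610. Cdkn2b was also passed over by 36 listed interactions and Cdkn2a by 18. The 36 include the 18 interactions of Cdkn2a to higher coordinates that are counted above. The median number passing over a gene was 1 over all coding genes and 10 over the 9 genes.

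**Figure D3:**
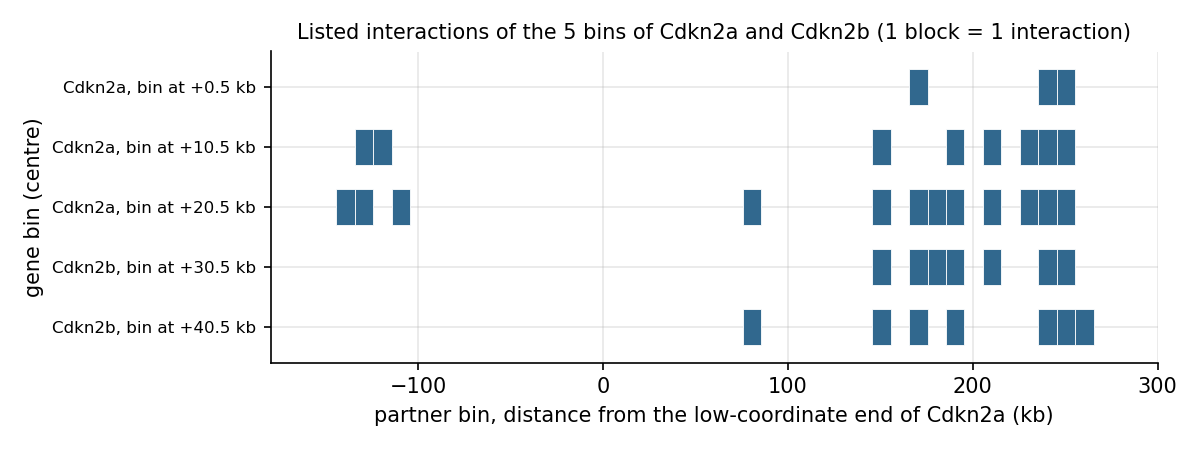
Rows are the 3 bins of Cdkn2a and the 2 bins of Cdkn2b, labelled by the distance of their centre from the low-coordinate end of Cdkn2a; each block is 1 listed interaction with a 10 kb partner bin, placed by its distance from the same point in kb. The 2 partner columns near 240 and 250 kb are filled in all 5 rows, and blocks left of 0 occur in 2 rows of Cdkn2a only.

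Within Cdkn2a, the bin with the high-coordinate end, which holds the ARF start, had 12 interactions, the middle bin, which holds the start inside the gene, had 8, and the bin at the low-coordinate end had 3. The genes read towards lower coordinates, so the partner-rich side lies upstream of their starts. The 250 bases before each of these starts and before the start of Cdkn2b are shown because the bins of these starts are among those joined to the shared partners; bins without a start, such as the lower bin of Cdkn2b with 7 interactions, are joined to them too. They are on the minus strand of chromosome 4: chr4:89294620-89294869 for the ARF start, chr4:89282193-89282442 for the start inside Cdkn2a and chr4:89311033-89311282 for Cdkn2b. Capitals mark matches to E2F letters (TTTCCCGC, TTTGGCGC or TTTCGCGC) and to the Sp1 letters GGGCGG, searched on both strands.

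Cdkn2a ARF start: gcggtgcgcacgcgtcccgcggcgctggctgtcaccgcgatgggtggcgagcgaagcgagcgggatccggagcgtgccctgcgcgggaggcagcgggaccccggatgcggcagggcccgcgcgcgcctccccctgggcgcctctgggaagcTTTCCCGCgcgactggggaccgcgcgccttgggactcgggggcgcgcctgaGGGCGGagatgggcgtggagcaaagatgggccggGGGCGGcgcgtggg

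Cdkn2a inner start: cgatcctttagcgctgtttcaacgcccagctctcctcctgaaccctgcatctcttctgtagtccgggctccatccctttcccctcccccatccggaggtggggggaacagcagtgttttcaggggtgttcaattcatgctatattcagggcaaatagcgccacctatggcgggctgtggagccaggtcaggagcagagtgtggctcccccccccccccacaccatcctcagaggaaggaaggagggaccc

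Cdkn2b start: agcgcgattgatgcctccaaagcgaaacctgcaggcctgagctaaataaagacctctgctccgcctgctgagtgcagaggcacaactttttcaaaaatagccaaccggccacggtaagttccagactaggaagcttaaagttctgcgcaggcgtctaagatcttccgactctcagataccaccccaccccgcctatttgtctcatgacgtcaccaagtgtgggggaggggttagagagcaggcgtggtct

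The stretch before the ARF start was 78.4% G or C with 40 CpG dinucleotides, that before the inner start 60% with 7, and that before Cdkn2b 53.6% with 12, against medians of 52.4% and 6 over all stretches. Here and below, all stretches include those of genes that are not protein-coding, unlike the stretches of these genes. The E2F letters stood 99 to 92 bases before the ARF start and in none of the other 9 stretches of these genes, against 1.54% of all stretches. The Sp1 letters were in 5 of the 10 stretches and in 33.0% of all. The TEAD letters GGAATG, bound by the partners of YAP, were in 0 of the 10 and in 12.5% of all, and the AP-1 letters TGANTCA in 0 and 6.77%. The palindromic NFI motif was in 0 and 0.0382%, the CCAAT letters in 3 and 33.7%, and the TATAAA letters in 1 and 12.4%. These counts concern 250 bases before a start and say nothing of the distal partner bins.

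Cdkn2c (chromosome 4, 109660876 to 109666756), which encodes the inhibitor p18, had 13 interactions in 3 contacts. On the lower side, 9 adjacent interactions at 150 to 230 kb reached a stretch with ends of 4930522H14Rik, Rnf11 and Ttc39a, and 1 more at 90 kb reached a bin between genes. Rnf11 encodes a RING finger protein and Ttc39a a tetratricopeptide repeat protein. On the higher side, 3 interactions at 310 to 330 kb passed over Faf1 and ended at Dmrta2, a transcription factor gene of forebrain development. In all, 8 of the 13 ended at an end of another coding gene, the highest share among the 5 genes with 10 or more interactions. The bin with both annotated starts of Cdkn2c had 11 of the interactions. The next bin, just outside the region and at an end of Faf1, had 7, so a window of 5 kb gave Cdkn2c 20.

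Rb1 (chromosome 14, 73192858 to 73325951) had 49 interactions, 42 to lower and 7 to higher coordinates. They were spread over the gene body. Its ends had 8, all in the bin at the high-coordinate end, and the bin at the low-coordinate end had 0. A block of 3 bins from 73100001 to 73130000, between coding genes and beyond Rcbtb2, took 28 of the 49. The bin from 73100001 to 73110000, which overlaps the noncoding gene Gm35388 (named after its value was seen), was joined to 12 of the 14 Rb1 bins, the next to 11 and the third to 5. These were 12 of the 17 interactions of the first bin, 11 of the 12 of the second and 5 of the 5 of the third. Another 12 interactions ended at or inside Rcbtb2, a neighbour that encodes an RCC1-like protein, 7 of them at one of its ends.

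The 3 bins at the high-coordinate side of Rb1 shared the 2 leading partner bins of the body, from 73100001 and 73110001, and had further partners. The last 3 bins held all 7 interactions to the higher side, which reached a bin inside Itm2b at 50 kb, bins between genes at 130 to 170 kb and a bin at Med4, a gene of the Mediator complex, at 180 kb. The last 2 bins also held the longest interactions of the 9 genes, 2 of 720 kb into Fndc3a. Lpar6, a lysophosphatidic acid receptor gene that lies within Rb1 (73237891 to 73240358), has its ends in 2 of the Rb1 bins, with 4 and 2 interactions, so these 6 are shared by the 2 genes. Of the 9 other coding genes within 500 kb of Rb1, none had more interactions, and Fndc3a had as many.

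Trp53 (chromosome 11, 69580348 to 69591873) lies in a gene-dense stretch, with 61 other coding genes within 500 kb, of which 27 had more interactions. Its 8 interactions, in 4 contacts, all ran to lower coordinates, at 180 to 520 kb. The bin of its start had 6, the bin before it 2 and the bin at its far end, shared with Atp1b2, 0. Wrap53, a neighbour that borders the start of Trp53, has an end in the same 2 bins, so all 8 interactions could belong to either gene. The nearest partner, at 180 to 190 kb, was a bin from 69390001 to 69400000 with ends of Cyb5d1, Naa38, Tmem88 and Kdm6b, the last encoding a histone H3 lysine 27 demethylase. That bin had 22 interactions, 2 of them with Trp53. The others reached a bin between genes at 320 to 340 kb and its neighbour, a bin with ends of Hes7, a Notch effector gene of somite formation, and Aloxe3, a lipoxygenase gene, at 460 kb, the next bin, inside Aloxe3, at 450 kb, and a bin with ends of Borcs6 and Tmem107 at 520 kb. Between 3 and 18 coding genes were passed over.

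Mdm2 (chromosome 10, 117688875 to 117710758) had 6 interactions, and 5 of them were not at its start. The bin of the annotated start, at the high-coordinate end, had 1, with Mdm1, 430 kb away. The other 5 were in the bin of the low-coordinate end, where the gene stops. That bin also holds an end of Cpm, a carboxypeptidase gene, so they are shared. They ran to lower coordinates at 230 to 460 kb and reached 2 adjacent bins between genes, 2 bins at and inside Cpsf6, a gene for an RNA cleavage factor, and an end of Yeats4, which encodes a reader of acylated histones. The 2 middle bins of Mdm2 had 0, and no listed interaction passed over the gene. The bins on both sides of the Mdm2 region, each outside it, had 4 interactions each.

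No interaction joined 2 of the 9 genes. Within 1 Mb, the longest distance in the list, only Cdkn2a and Cdkn2b had another of the 9 within reach. Of the pathway genes below, only Aurkb, the mitotic kinase gene, lay within 1 Mb of one of them, 529 kb from Trp53, and no interaction joined the 2. All other pairs lay on different chromosomes or beyond the longest listed distance.

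The other genes of the pathway had lower medians. Interactions were found at 20 of 26 further p53 pathway genes (76.9%, exact 95% interval 56.4 to 91.0%), and the median was 7. Chek2, a DNA damage checkpoint kinase gene, had 37, Hipk2, a kinase that phosphorylates p53, had 35 and Sesn1, a p53 target gene, had 29. Hipk2 covered 20 bins, with 1.75 interactions per bin, against 7.4 at Chek2 and 2.42 at Sesn1. Among 20 RB and E2F genes, 17 had at least 1 (85.0%, 62.1 to 96.8%), and the median was 4.5. E2f8 had 30, E2f6 24 and E2f3 10; E2f8 and E2f6 are repressors of the family and E2f3 an activator. The INK4 relative Cdkn2d, chosen after its value was seen, had 5. Among 20 cell cycle activators, 17 had at least 1 (85.0%, with the same interval), and the median was 3.5. All 3 intervals include the 67.8% found over all coding genes. In that list Ccnd1 had 63, Cdk6 62 and Ccnd2 39, all of them targets of INK4 proteins or their cyclin partners. Cdk6 covered 21 bins, with 2.95 interactions per bin. After merging, Ccnd1 had 4 contacts, Ccnd2 3 and Cdk6 15. Cdk4, Ccnb1 and Ccnb2, named after their values were seen, had 0 each, as did Rbl2, Tfdp1 and Cdkn3 of the RB and E2F list. Cdk4 covered only 1 bin. The 9 genes, with a median of 13, were picked as a group for description, and whether their median differs from those of the lists was not tested.

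**Figure D4:**
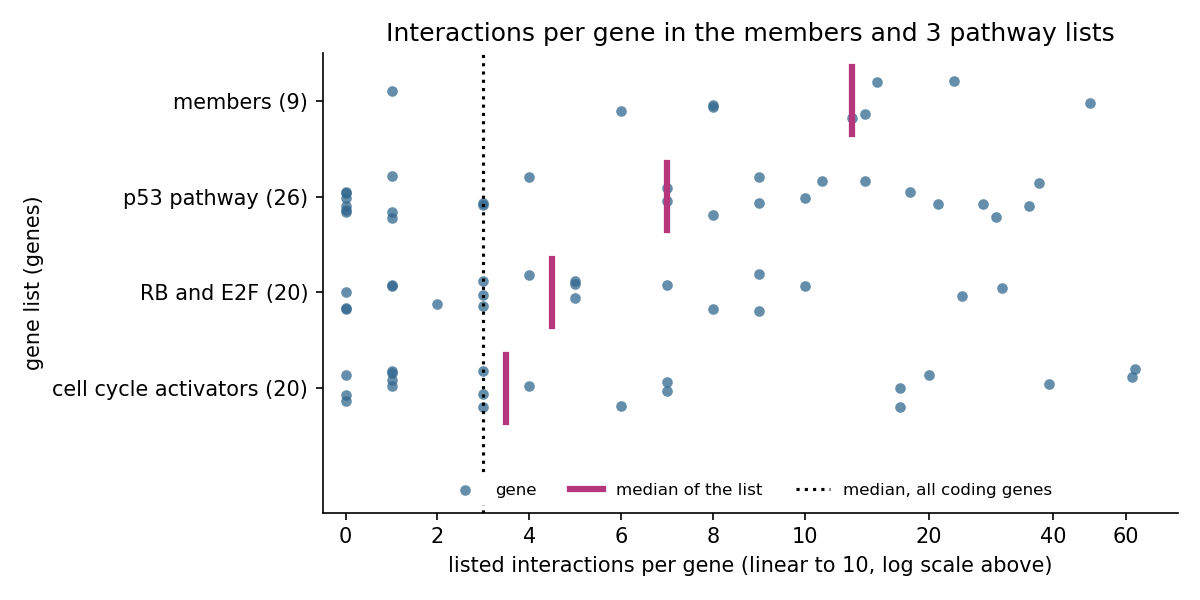
Each point is a gene, placed by its number of listed interactions (linear up to 10, log scale above); thick bars are list medians and the dotted line is the median of 3 over all coding genes. The 9 genes have a median of 13, the 26 p53 pathway genes of 7, and the ranges of all 4 groups overlap.

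The list carries no expression values, so the tissue label could not be checked against expressed markers. By the same rule, the neural progenitor genes Sox2 and Nes had 27 and 7 interactions and the ciliogenesis gene Foxj1 had 9. The liver gene Alb had 0, the pancreatic gene Ins2 3 and the muscle gene Ckm 6, close to Nes and above the median of 3 over all coding genes, so these counts do not separate the tissues.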

How the data were processed

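The interaction list was deposited by the authors as pairs of anchor positions (chromosome, start, end), per the file headers, with no column for a sample. BWA and the mm10 build were used, per the submitters' processing notes; the interaction caller, its threshold and any pooling of libraries were not given in the sources used. All anchors were 10 kb bins and distances ran from 20 to 1000 kb. Gene positions and promoter sequences came from NCBI RefSeq, GRCm38.p6 (mm10); 7 of the 9 genes had a promoter sequence. Interactions were counted per gene in Python 3.11.15 with pandas 2.3.3, by any overlap of a bin with the gene body and 2.5 kb beyond both ends, for all 20665 autosomal coding genes. An interaction lists a partner by its bin, and distances are between bin starts. Overlap counting was compared with a second, direct overlap calculation on the same simulated interactions at 200 genes, and all 200 counts were the same. This checks the counting code only. Intervals are exact (Clopper-Pearson). With 1 list, no test over libraries was possible.

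The genes and the pathway lists were chosen with earlier results of these data known. Named were the 9 genes, every coding gene with an end in their partner bins, the top 3 genes of each pathway list by interactions, pathway genes in contact with one of the 9 and genes sharing their end bins. Alternatives were other windows, gene ends or starts only, bin midpoints and merging of adjacent interactions.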

Additional observations from a re-analysis of the deposited data

How the results depend on the processing

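No paired analysis was possible because the deposited positions do not separate the libraries. A stricter threshold was not run, since the list has no score. Of 100 values recomputed under 6 alternatives, 73 stayed within 1.5 times the value above (shares, within its interval). Merging adjacent interactions gave 3 at Cdkn1a, 6 at Cdkn1c, 7 at Cdkn2a, 5 at Cdkn2b, 3 at Cdkn2c, 4 at Trp53 and 9 at Rb1, a median of 4 for the 9 genes, and list medians of 2.5 (p53 pathway), 2 (RB and E2F) and 1 (activators), against 2 over all coding genes. With bin midpoints Cdkn1a had 5, Cdkn1c 0, Cdkn2b 7 and Mdm2 0, the median of the 9 was 6, and the list medians were 3 (p53 pathway), 2 (RB and E2F) and 1.5 (activators), against 2; 7 of the 9 genes then had an interaction. With gene ends only Cdkn2a had 15 and Rb1 had 8, and the median of the 9 was 8 against 2. With annotated starts only, for the 7 genes that have one, Mdm2 had 1 and the median was 8 against 1; that of the activators was 2. A window of 0 kb gave 5 at Cdkn1a and a window of 5 kb gave 20 at Cdkn2c. The median of the 9 genes stayed above that of all coding genes under each of the 6 alternatives. Anchors of 10 kb cannot place a contact within small genes.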
